A study of Mus musculus with 2 samples.

Results

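The genes described here are 10 heat shock proteins and molecular chaperones (*Hspa1a*, *Hspa1b*, *Hspa8*, *Hsph1*, *Dnajb1*, *Hsp90aa1*, *Hsp90ab1*, *Hspa5*, *Hspb1* and *Cryab*), taken by their symbols from the 32285 genes of the count matrices. All 10 were found once in both matrices. The data are 2 10x Genomics 3′ single-cell RNA libraries, replicates 1 and 2 of a single condition, from the striatum of untreated adult mice aged 8 to 10 weeks. The labels call the cells glia enriched, name the strain as C57/Bl6J in one field and C57BL/6NTac in another, and give no genotype beyond the strain and no number of animals per library. Both libraries were made from slices digested with pronase at 34 °C for 30 min, as the labels state. The study's methods add actinomycin D, an inhibitor of transcription, during preparation, and give another digestion time and age, so the exact handling of these 2 libraries is unclear. No stress or heat treatment was applied, and the values below compare cell classes and libraries only.

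Heat shock proteins keep other proteins folded. The cytosolic Hsp70 proteins bind unfolded stretches of client proteins, with J-domain proteins such as *Dnajb1* delivering clients and Hsp110 proteins such as *Hsph1* exchanging nucleotide, while Hsp90 proteins act later on clients such as kinases and steroid receptors. Small heat shock proteins such as *Hspb1* and *Cryab* hold unfolded proteins without using ATP, and *Hspa5*, also called BiP, is the Hsp70 of the endoplasmic reticulum. Some members (*Hspa8*, *Hsp90ab1*) are made in nearly all cells, whereas others (*Hspa1a*, *Hspa1b*, *Dnajb1*) are the classical targets of the transcription factor *Hsf1*, which binds repeated GAA units called heat shock elements.

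The promoter elements are shown first because the inducible members are known for them. Of the 10 members, 6 had a window in the RefSeq promoter table (GRCm38.p6), which runs from 250 bases before to 50 bases after each start. The letters GAANNTTC or TTCNNGAA, searched on both strands, were found in 4 of these 6 genes, in 5 of their 8 windows, against 15.1% of all 32851 windows. In *Hspa1a* (chr17:34972242-34972271, minus strand) and *Hspa1b* (chr17:34959324-34959353, minus strand) the element lay at -104 to -97 from the start, within the same 30 bases. *Hspb1* (chr5:135887791-135887820, plus strand) held it at -117 to -110, and a further match lay at -97 to -90. *Hsph1* (chr5:149636279-149636308, minus strand) held 3 alternating units in a row, TTC, GAA and TTC with 2 bases between each, an arrangement that contains the shorter motif and that occurred, in either orientation, in 0.603% of windows. These units lay after the start, at 15 to 27, and a shorter match of *Hsph1* lay before a start, at -33 to -26. The stretches are printed 5′ to 3′ with the element in capitals.
Hspa1a: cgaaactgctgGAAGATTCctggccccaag
Hspa1b: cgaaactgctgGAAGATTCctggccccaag
Hspb1: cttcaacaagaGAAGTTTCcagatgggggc
Hsph1: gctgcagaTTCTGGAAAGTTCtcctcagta
*Hspa5* held instead the endoplasmic reticulum stress element, CCAAT and CCACG with 9 bases between them, searched on both strands, at -65 to -47 (chr2:34772020-34772049, plus strand), found in 0.119% of windows and also in 6 of 13 windows of other chaperones of that compartment.
Hspa5: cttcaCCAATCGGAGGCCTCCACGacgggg
These matches describe letters in a window. Binding was not measured. *Dnajb1* had a window without either motif, and *Hspa8*, *Hsp90aa1*, *Hsp90ab1* and *Cryab* had no window in the table.

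The libraries held 6978 and 5437 barcodes with 44597660 and 37982720 UMIs (unique molecular identifiers, each counting 1 captured transcript), and 9 barcode sequences occurred in both. After removal of cells with under 300 detected genes and of marked doublets, 1.39% and 2.96% of cells, 12007 cells were clustered without the members or other chaperones, and clusters were named by markers as oligodendrocyte-like (2375 cells), oligodendrocyte precursor (OPC)-like (641), astrocyte-like (2597), neuron-like (367), neuroblast-like (1667), microglia-like (2139), macrophage-like (170), endothelial-like (1403) and mural-like (551). In each named cluster 6 or more markers of its class were raised. Erythroid-like cells (97, with 11 in library 2) were left out of the fit. The neuroblast-like class also held cycling progenitors and ependymal cells, and the astrocyte-like class held 1003 shallow cells led by neuronal genes. The mural-like class took in 54 fibroblast-like cells and the oligodendrocyte-like class 272 differentiating OPC-like cells, which formed clusters at finer resolution. Median UMIs per cell ranged from 1611 in astrocyte-like cells of library 1 to 12141 in oligodendrocyte-like cells of library 2.

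Levels are given in CPM, the UMIs of a gene relative to all UMIs of its class after TMM scaling, first for library 1 and then for library 2. Each class was tested against the mean of the other 8 with edgeR's quasi-likelihood test on sums per library, with Benjamini-Hochberg adjustment over 15273 genes. All 10 members differed between classes, against 97% of all genes, so that count says little about chaperones. Over the 90 pairs of member and class, 25 were higher, against 27.4% of all genes and contrasts, and 26 were lower, against 22%. Between 2 classes taken as a pair, from 19.5% to 65.3% of all genes differed, and pairs are used below only for the order of levels of single genes.

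**Figure D1:**
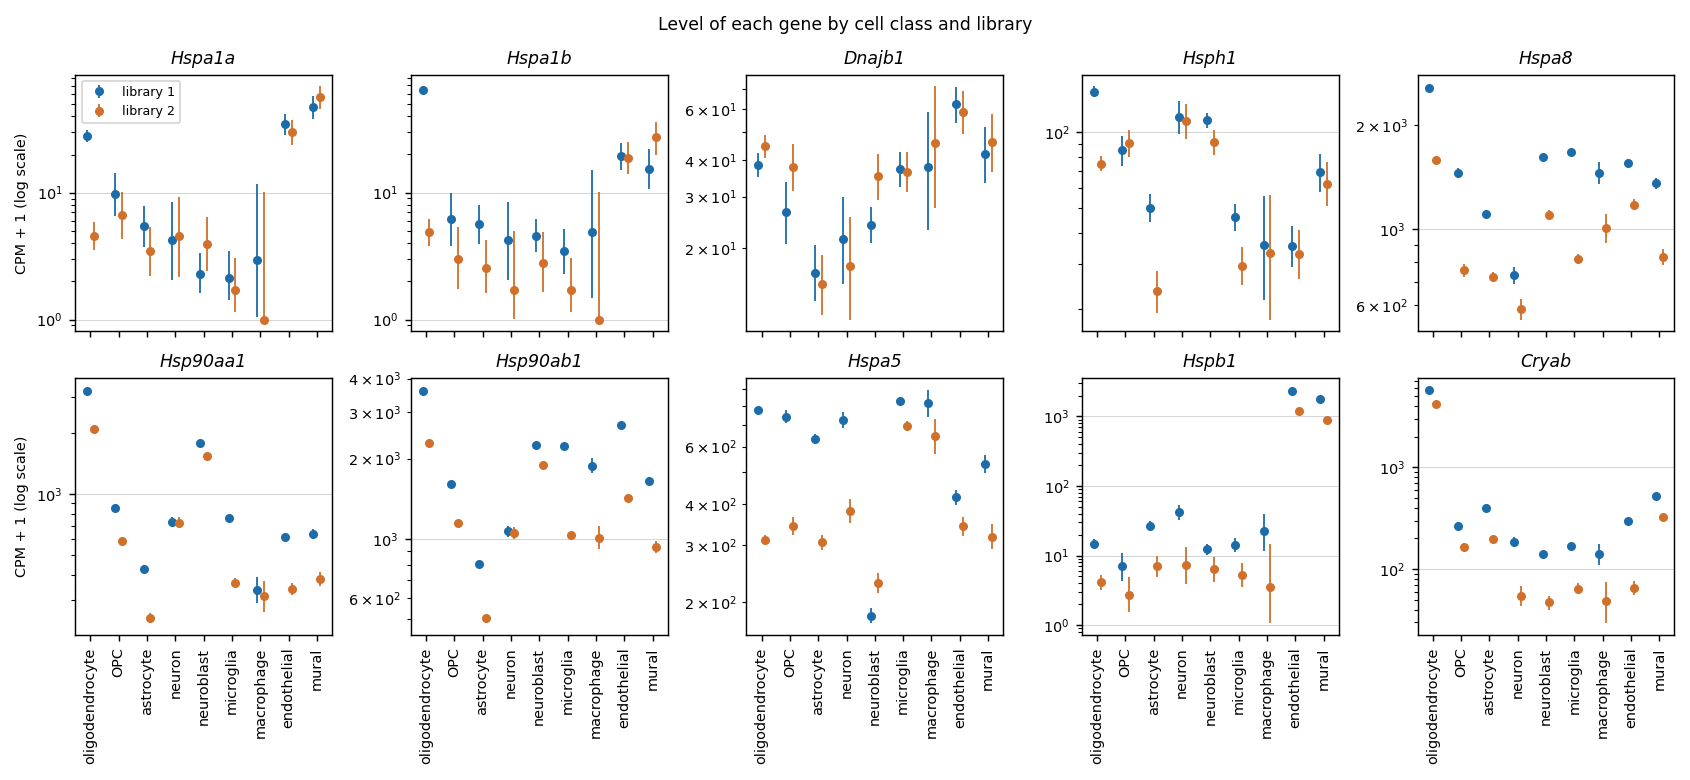
Level of each member by cell class. The horizontal axis gives the 9 classes and the vertical axis CPM plus 1 on a log scale, points are the class sums of library 1 (blue) and library 2 (orange), and bars are exact Poisson 95% intervals for counting error only. Hspb1 stands high in endothelial and mural cells, Cryab in oligodendrocytes, and Hspa1a and Hspa1b of oligodendrocytes are high in library 1 alone.

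*Hspb1*, the small heat shock protein also known as Hsp27 and a partner of the actin cytoskeleton, marked the vessel wall. It stood at 2352 and 1179 CPM in endothelial-like cells and at 1799 and 896 CPM in mural-like cells (pericytes and smooth muscle, with some fibroblast-like cells). In the other 7 classes it lay between 1.7 and 41.0 CPM, so the vascular and non-vascular values did not overlap in either library. Its log2 fold change against the mean of the other classes was 6.70 (SE 0.15, adjusted p = 2.78e-15) in endothelial-like and 6.25 (SE 0.15, adjusted p = 5.46e-15) in mural-like cells, the widest span of any member, with a mean in the highest class 460.1 times that in the lowest. OPC-like cells were lowest, at 6.0 and 1.7 CPM (-3.40, SE 0.38, adjusted p = 1.24e-06). A difference between the vascular classes was not called (log2 0.39, SE 0.24, adjusted p = 0.263), whereas mural-like cells exceeded the next class, neurons, by 6.00 (SE 0.33, adjusted p = 5.1e-10).

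At least 1 *Hspb1* UMI was found in 73.8% (exact binomial 95% interval 70.6 to 76.8) and 76.0% (72.3 to 79.3) of endothelial-like cells, against 5.00% and 1.47% of the deeper OPC-like cells, which had 7007 and 7222 median UMIs against 2692.5 and 3252. When each cell was thinned to 1000 UMIs, with shallower cells left out, these shares were 73.8% and 60.1% against 2.08% and 0 of 333 cells. Endothelial RNA was also found at low level in the other classes. Per 100 UMIs of the endothelial genes *Cldn5*, *Flt1* and *Ly6c1* there were 15.1 and 7.26 *Hspb1* UMIs in endothelial-like cells, and between 5.26 and 27.0 in the 7 non-vascular classes. Mural-like cells held 62.5 and 27.3, above every other class of their own library. The part of free RNA in the low *Hspb1* values was not tested.

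*Cryab*, the small heat shock protein alpha-B crystallin, marked oligodendrocytes, the cells that make myelin. It reached 5697 and 4219 CPM in oligodendrocyte-like cells, followed by 520 and 327 in mural-like cells, and ranged from 46.1 to 393 in the other classes. The oligodendrocyte values did not overlap with any other class. Its log2 fold change was 5.07 (SE 0.17, adjusted p = 1.26e-13), and these cells exceeded mural-like cells, the next class, by 3.60 (SE 0.33, adjusted p = 6.98e-08). Mural-like cells were themselves above the mean of the other classes by 1.01 (SE 0.22, adjusted p = 0.00123), a call lost without the library block. A *Cryab* UMI was found in 94.0% (92.5 to 95.3) and 93.6% (92.0 to 94.9) of oligodendrocyte-like cells, and in 85.1% and 84.5% after thinning. Microglia-like cells held one in 52.6% and 21.2%, or 15.2% and 6.10% after thinning, so single UMIs were widespread.

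The lower *Cryab* values were set beside the depth of the cells. Endothelial-like cells split at finer resolution into a deeper cluster at 139 and 47.7 CPM (plain CPM, without TMM, as for all finer clusters) and a cluster with a median of 898 UMIs at 1061 and 265 CPM. The lower call in endothelial-like cells (log2 -0.64, SE 0.25, adjusted p = 0.0433) was lost in 4 alternatives and changed sign, to 0.018, when doublets were kept. The part of depth in these values was not tested.

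*Hspa1a* and *Hspa1b* encode the stress-inducible Hsp70 proteins, in neighbouring genes of chromosome 17 whose coding sequences were 99.6% identical over aligned bases, against 71.8% in the 3′ untranslated region, where these libraries are read. How reads shared by both were counted is not given in the sources used here, so the split between them is uncertain. In mural-like cells *Hspa1a* stood at 46.6 and 55.5 CPM, and in endothelial-like cells at 33.8 and 29.1 CPM. Oligodendrocyte-like cells held 27.2 CPM in library 1 and 3.5 in library 2, while OPC-like cells held 8.8 and 5.7 and the other classes 4.4 or less. The vascular values were thus alike in both libraries, and the oligodendrocyte values were not. Log2 fold changes of *Hspa1a* were 3.73 (SE 0.45, adjusted p = 3.09e-06) in mural-like and 2.90 (SE 0.46, adjusted p = 5.19e-05) in endothelial-like cells. No difference between these 2 classes was called (log2 0.74, SE 0.50, adjusted p = 0.327). The same test called oligodendrocyte-like cells (1.54, SE 0.45, adjusted p = 0.00648), but library 1 alone gave 2.18 and library 2 alone -0.23, so that call rests on library 1.

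By mean level *Hspa1b* was highest in the same 3 classes, but in another order, with oligodendrocyte-like cells first because of library 1. It stood at 63.2 CPM in oligodendrocyte-like cells of library 1 and at 3.9 in those of library 2, at 18.5 and 17.9 in endothelial-like cells, and at 14.5 and 26.2 in mural-like cells. The remaining 6 classes lay at 5.2 CPM or less. The fold changes were 2.68 (SE 0.49, adjusted p = 0.000138) in oligodendrocyte-like, 2.18 (SE 0.66, adjusted p = 0.0113) in endothelial-like and 2.44 (SE 0.72, adjusted p = 0.0119) in mural-like cells, and without library 1 the first fell to 0.63. No difference among the 3 leading classes of *Hspa1b* was called (adjusted p from 0.604 to 0.885).

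Cell by cell, 391 of 1195 oligodendrocyte-like cells of library 1 (32.7%) carried a UMI of either gene, against 77 of 1180 in library 2 (6.53%), at similar median depth (11650 and 12141 UMIs). In library 1 the 9 cells with 10 or more such UMIs held 12.9% of them. Within library 1, *Hspa1a* was seen in 34.1% of the oligodendrocyte-like cells that held *Hspa1b* and in 9.36% of those that did not. In library 2 these shares were 4.88% (2 of 41 cells) and 3.16%. Endothelial-like cells gave 34.0% against 5.33% in library 1 and 23.5% against 7.08% in library 2. Mural-like cells gave 40.7% against 17.6% and 41.2% against 21.4%. These shares were not matched for depth. After thinning, *Hspa1b* was found in 3.29% (2.34 to 4.48) of oligodendrocyte-like cells in library 1 and in 0.515% (0.189 to 1.12) in library 2. The figures for *Hspa1a* were 2.16% and 0.343%. In microglia-like cells 0.538% and 0.293% held *Hspa1a* without thinning. At finer resolution the difference held in the main oligodendrocyte cluster (*Hspa1b* 61.1 and 3.4 CPM), in the cluster rich in mitochondrial RNA (14.6 and 1.5) and in differentiating OPC-like cells (10.0 and 0.5). With 1 library on each side it has no test.

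**Figure D2:**
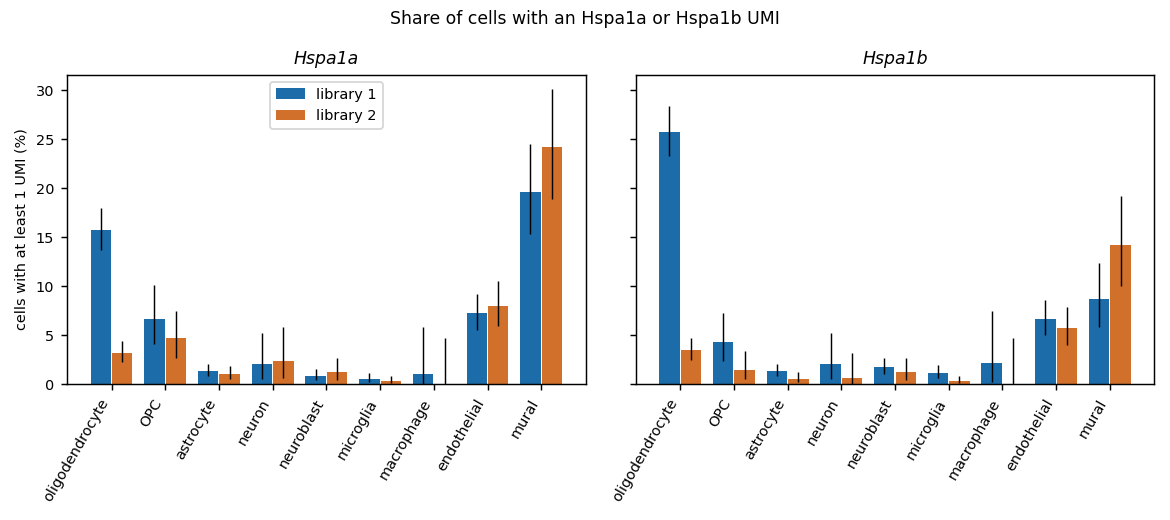
Share of cells with at least 1 UMI of Hspa1a (left) or Hspa1b (right). The horizontal axis gives the cell class and the vertical axis the percent of cells, bars are library 1 (blue) and library 2 (orange), and error bars are exact binomial 95% intervals for counting error only. Oligodendrocyte-like cells stand at 15.7% and 25.8% in library 1 and at 3.22% and 3.47% in library 2. In mural-like cells Hspa1b stands at 8.68% and 14.2%, higher in library 2.

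Immediate early genes such as *Fos* and *Jun*, which rise within minutes of a stimulus or of tissue dissociation, were counted beside these results. All 14 listed were higher in endothelial-like and in mural-like cells, where 26.5% and 22.9% of all genes were, with summed levels of 5651 and 7738 CPM and of 2151 and 3298 CPM. In the other classes the sum lay between 202 and 1160 CPM. Oligodendrocyte-like cells had none of the 14 higher and 10 lower, with 376 CPM in library 1 and 237 in library 2. The part of dissociation in the levels of *Hspa1a* and *Hspa1b* was not tested.

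*Dnajb1*, the J-domain partner that the heat shock response induces together with *Hspa1a*, was flatter. It ranged from 15.5 and 14.0 CPM in astrocyte-like cells to 61.0 and 57.3 CPM in endothelial-like cells. It was higher in endothelial-like cells (1.00, SE 0.14, adjusted p = 1.34e-05) and mural-like cells (0.47, SE 0.16, adjusted p = 0.0271), and lower in astrocyte-like (-1.26, SE 0.17, adjusted p = 7.62e-06) and neuron-like cells (-0.89, SE 0.21, adjusted p = 0.00141). In oligodendrocyte-like cells, at 37.6 and 43.6 CPM, it was called higher (0.38, SE 0.13, adjusted p = 0.0179), but with library sizes alone in place of TMM the value was -0.069. Its level was thus not higher in library 1, where *Hspa1a* and *Hspa1b* were. At 1000 UMIs per cell the mural, astrocyte and neuron calls were lost.

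*Hsph1*, the Hsp110 protein that exchanges nucleotide on Hsp70, was highest in 4 classes. Neuron-like cells held 113 and 109 CPM, oligodendrocyte-like cells 143 and 74.1, neuroblast-like cells 110 and 90.1, and OPC-like cells 83.5 and 89.4, and no difference between these neighbours in the order was called (adjusted p from 0.557 to 0.786). Nor was a difference called between OPC-like cells and the next class, mural-like cells at 68.3 and 61.6 CPM (log2 0.44, SE 0.26, adjusted p = 0.169). Mural-like cells exceeded microglia-like cells by 0.83 (SE 0.26, adjusted p = 0.0132), and the last 4 classes averaged between 33.2 and 36.9 CPM. Log2 fold changes were 1.02 (SE 0.19, adjusted p = 0.000184) in neuron-like and 0.93 (SE 0.16, adjusted p = 9.18e-05) in oligodendrocyte-like cells. The neuron call was lost at 1000 UMIs per cell, and a call in OPC-like cells (0.63) was lost without the library block and at finer resolution. The neuroblast call (0.84, SE 0.17, adjusted p = 0.000423) did not come from neuroblast-like clusters alone. At finer resolution ependymal-like cells stood at 254 and 124 CPM, cycling progenitor-like cells at 143 and 115, and the 2 neuroblast-like clusters between 57.8 and 62.8, and the contrast for neuroblast-like cells became -0.35.

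*Hspa8*, the constitutive cytosolic Hsp70 that also strips clathrin from vesicles, was abundant everywhere. It was lowest in neuron-like cells at 732 and 584 CPM and highest in oligodendrocyte-like cells at 2564 and 1585 CPM. Oligodendrocyte-like cells were higher (0.92, SE 0.11, adjusted p = 2.32e-06) and exceeded the next class by 0.57 (SE 0.16, adjusted p = 0.00696), neuron-like cells were lower (-0.90, SE 0.14, adjusted p = 2.46e-05), and no difference between neighbours was called from endothelial-like down to astrocyte-like cells. The ratio of the highest to the lowest class mean, 3.15, was the smallest among the members.

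Of the Hsp90 pair, *Hsp90aa1*, the inducible cytosolic form, had the wider range. It stood at 3228 and 2103 CPM in oligodendrocyte-like and at 1778 and 1540 CPM in neuroblast-like cells, and from 245 to 852 elsewhere. These were the only 2 classes called higher for it, with log2 fold changes of 2.19 (SE 0.13, adjusted p = 2.69e-10) and 1.47 (SE 0.14, adjusted p = 1.63e-07), and neuroblast-like cells exceeded the next class by 1.17 (SE 0.22, adjusted p = 0.000211). Astrocyte-like (-1.19, SE 0.18, adjusted p = 2.67e-05) and macrophage-like cells (-1.19, SE 0.19, adjusted p = 0.000121) were lower, at 427 and 245 CPM and at 337 and 313 CPM. Smaller lower calls in endothelial-like (-0.62, SE 0.17, adjusted p = 0.00616) and mural-like cells (-0.51, SE 0.17, adjusted p = 0.0245) were lost in 1 and 3 alternatives. Within the neuroblast-like class *Hsp90aa1* stood at 2301 and 1991 CPM in cycling progenitor-like and at 2862 and 1570 in ependymal-like cells. The deeper neuroblast-like cluster held 1342 and 1387.

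*Hsp90ab1*, the constitutive form, was spread more evenly. Oligodendrocyte-like cells held 3590 and 2299 CPM, neuroblast-like cells 2252 and 1891, and endothelial-like cells 2666 and 1419, and no difference between neighbours in this order was called (adjusted p from 0.0648 to 0.732), although oligodendrocyte-like exceeded endothelial-like cells (log2 0.56, SE 0.21, adjusted p = 0.0325). Astrocyte-like cells were lowest at 804 and 501 CPM and lay below the next class, neurons, by a log2 difference of 0.77 (SE 0.21, adjusted p = 0.00619). Against the mean of the others the value was 1.11 (SE 0.14, adjusted p = 3.32e-06) in oligodendrocyte-like and -1.34 (SE 0.18, adjusted p = 6.57e-06) in astrocyte-like cells. Smaller calls in endothelial-like (0.48), neuroblast-like (0.59) and neuron-like cells (-0.48) were each lost in 2 or more alternatives.

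*Hspa5*, the Hsp70 of the endoplasmic reticulum and sensor of its folding load, had another order. Microglia-like cells held 827 and 692 CPM and macrophage-like cells 812 and 646, while neuroblast-like cells held 181 and 229, below every other class in both libraries. The neuroblast value was -1.28 (SE 0.24, adjusted p = 0.000248). The rise in microglia-like (0.79, SE 0.20, adjusted p = 0.00291) and macrophage-like cells (0.71, SE 0.22, adjusted p = 0.0195) was lost in 3 alternatives each, among them library sizes alone in place of TMM. Neither class was called against neuron-, oligodendrocyte- or OPC-like cells taken singly (adjusted p from 0.0848 to 0.224). Below them, no difference between neighbours was called from neuron-, oligodendrocyte-, OPC- and astrocyte-like to mural-like cells, and all were lower in library 2: oligodendrocyte-like cells held 775 CPM in library 1 and 310 in library 2.

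**Figure D3:**
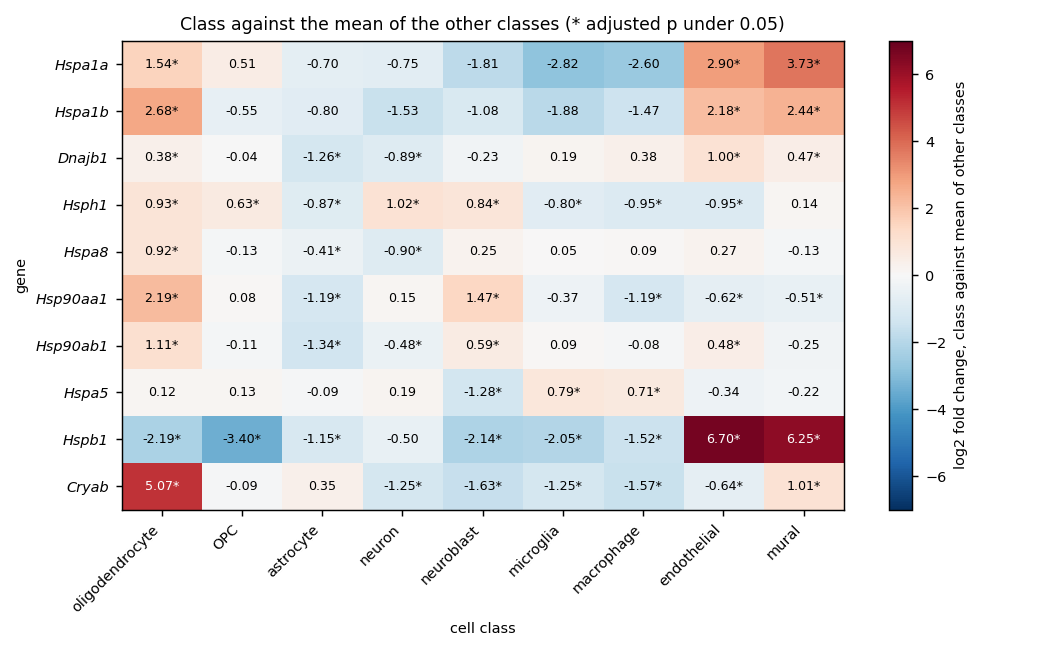
Log2 fold change of each member (rows) in each class (columns) against the mean of the other 8 classes, from edgeR with the library as a block. Colour and number give the log2 fold change, red higher and blue lower, and an asterisk marks an adjusted p under 0.05. Oligodendrocytes hold 8 starred rises among the 10 members and astrocytes none.

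Read by class, oligodendrocyte-like cells held 8 of 10 members higher (background 34.7%) and 1, *Hspb1*, lower (background 23.1%), of which the *Hspa1a*, *Hspa1b* and *Dnajb1* calls carry the limits given above. Astrocyte-like cells held 0 higher (26.5%) and 6 lower (26.2%): *Hspa8*, *Hsp90aa1*, *Hsp90ab1*, *Hsph1*, *Hspb1* and *Dnajb1*. Of these, the *Hspa8* call was lost in 4 alternatives, the *Hsph1* and *Dnajb1* calls at 1000 UMIs per cell and the *Hspb1* call without the library block. The mean behind every lower *Hspb1* call here holds endothelial- and mural-like cells, where *Hspb1* is high. Taken singly, astrocyte-like cells were called below only these classes in *Hspb1*. They exceeded OPC-like (log2 2.00, SE 0.45, adjusted p = 0.00181), oligodendrocyte-like (0.93, SE 0.32, adjusted p = 0.0175) and neuroblast-like cells (0.88, SE 0.35, adjusted p = 0.0392). Leaving out the 1003 mixed shallow cells was decided on once the clusters had been seen, and the totals over all classes were then 25 higher and 25 lower. Endothelial-like cells held 5 higher (26.5%) and 3 lower (19.1%), and mural-like cells 5 (22.9%) and 1 (17.1%). Neuron-like cells held 1 (26.4%) and 4 (29.2%), neuroblast-like cells 3 (31.8%) and 3 (25.9%), microglia-like cells 1 (34.1%) and 3 (21.7%), macrophage-like cells 1 (17.9%) and 4 (14.8%), and OPC-like cells 1 (25.8%) and 1 (21.2%). The median log2 fold change over the members was 1.02 in oligodendrocyte-like cells, where that of all genes was 0.04, and -0.83 in astrocyte-like cells, where it was -0.07.

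The partner families of the members, 80 further chaperones and regulators, were counted in the same contrasts of the main fit. Their calls were not followed through the alternatives. In oligodendrocyte-like cells, where 34.7% of all genes were higher and 23.1% lower, 8 of 10 cochaperones of Hsp90 were higher and 1 lower, among them *Ptges3*, the p23 protein that closes the Hsp90 clamp (1.15, SE 0.10, adjusted p = 2.44e-08), and *Ahsa1*, which stimulates its ATPase (1.07, SE 0.11, adjusted p = 2.87e-07). All 8 tested subunits of the chaperonin TRiC, which folds actin and tubulin, and all 6 mitochondrial chaperones were also higher there, and 8 of 11 J-domain proteins were, led by *Dnajc6*, the auxilin that recruits *Hspa8* to clathrin (3.89, SE 0.19, adjusted p = 1.42e-11), and *Dnajb2* (3.56, SE 0.08, adjusted p = 9.36e-15). Median log2 fold changes of these lists in oligodendrocyte-like cells ran from 0.50 (mitochondrial chaperones) to 0.70 (TRiC). Library sizes alone in place of TMM moved the median of all genes there by -0.44, so the smaller rises depend on the scaling. The 8 TRiC subunits were higher in neuroblast-like cells too (background 31.8%), and all 8 were lower in astrocyte-like (26.2%) and in neuron-like cells (29.2%). In astrocyte-like cells 8 of 10 Hsp90 cochaperones were lower and none higher, although *Hspa2*, another Hsp70, was higher at 191 and 161 CPM (2.97, SE 0.14, adjusted p = 2.34e-11), as was *Hspb8* (3.79, SE 0.47, adjusted p = 2.88e-08).

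Chaperones of the endoplasmic reticulum were counted beside *Hspa5*, in the main fit alone. Their median log2 fold change was 0.87 in microglia-like and -0.69 in neuron-like cells. Library sizes alone in place of TMM moved the median of all genes by -0.43 and 0.38 in these classes. In microglia-like cells 14 of 15 were higher (background 34.1%), among them *Sdf2l1* (2.61, SE 0.14), the lectin chaperone *Calr* (1.27, SE 0.13) and *Hsp90b1* (1.19, SE 0.13), and the exception was the collagen chaperone *Serpinh1* (-3.51, SE 0.30, adjusted p = 3.15e-08). In neuroblast-like cells 11 of 15 were lower (background 25.9%) and none higher, with *Sdf2l1* at 28.7 and 15.7 CPM (-1.66, SE 0.20, adjusted p = 2.69e-06). Their summed level was 6098 and 5530 CPM in microglia-like and 1834 and 1779 CPM in neuroblast-like cells. Neuron-like cells held 8 of 15 lower (background 29.2%) and 1 higher (26.4%).

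Among other small heat shock proteins, 4 of 6 tested were higher in mural-like cells (background 22.9%) and 1 lower (17.1%), *Hspb3*, which was at 0 UMIs there. *Hspb2* stood at 153 and 133 CPM there (7.19, SE 0.19, adjusted p = 1.33e-14) and at 4.1 or less in every other class. *Hspb7* stood at 15.0 and 12.8 CPM there, with 2 or fewer UMIs in each other sum. Genes this low elsewhere pass the filter on low counts mainly through their mural-like sums, which leaves little room for another call. The calls of *Hspb2* and *Hspb7*, and that of *Hspb3* at 0 UMIs, are therefore not read against the background. *Hspb2* (chr9:50751078-50752354, minus strand) overlaps the start of *Cryab* (chr9:50751325-50756636, plus strand) in the GRCm38 annotation, and whether counting used the strand is not given in the sources used here. Oligodendrocyte-like cells, with the most *Cryab*, held 4.1 and 2.6 CPM of *Hspb2*, and the part of shared reads was not tested. Endothelial-like cells held *Hspa12b* at 224 and 160 CPM (7.01, SE 0.21, adjusted p = 3.53e-14) and *Hspb8* (4.79, SE 0.40, adjusted p = 4.44e-10). Microglia-like cells held *Hspb3* at 65.9 and 52.9 CPM (6.92, SE 0.30, adjusted p = 1.45e-13).

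The smaller lists were mixed. Of 8 further Hsp70 and Hsp110 genes, 4 were higher and none lower in mural-like cells (background 22.9% and 17.1%), with 0 to 3 higher and 1 to 4 lower in each other class. Of 10 nucleotide exchange and adaptor factors 6 were higher and 3 lower in neuroblast-like cells (background 31.8% and 25.9%), with 0 to 5 in either direction in each other class. *Bag3*, an adaptor that links Hsp70 to small heat shock proteins, was at 2.4 and 0.7 CPM in OPC-like cells (-3.13, SE 0.45, adjusted p = 2.25e-05). Also called lower were *Hspa12b* in OPC-like cells (0.4 and 0.67 CPM), *Hspa2* (5.8 and 5.0) and *Dnaja4* (0 and 5.0) in macrophage-like cells, *Hspb2* in neuroblast-like cells (0.64 and 0.30) and *Serpinh1* in neuron-like cells (10.2 and 1.4). The values of 5.8 CPM or less rest on few UMIs. For *Hspa12b* the mean of the other classes holds endothelial-like cells at 224 and 160 CPM. For *Hspb2* it holds mural-like cells at 153 and 133 CPM. *Dnajc6* was higher in neuron-like cells (25.6 and 37.7 CPM). Of the 4 genes around *Hsf1*, the one called in oligodendrocyte-like cells was *Hsbp1*, a binding protein of the factor (1.08, SE 0.09, adjusted p = 2.70e-08), whereas *Hsf1* itself was at 0.00 there (SE 0.14, adjusted p = 1) and *Hsf2* was higher in neuroblast-like cells (1.14, SE 0.12, adjusted p = 6.71e-07).

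The libraries differed across the members. Of the 90 values of member and class, 79 were lower in library 2 than in library 1, whereas the median difference over all genes lay within 0.03 log2 of 0 in each class, and 25 fell below the 5th percentile of all genes while 1 lay above the 95th. *Hspb1* was lower in library 2 in 9 of 9 classes (median log2 difference -1.57), *Cryab* in 9 of 9 (-1.40), *Hspa8* in 9 of 9 (-0.60), *Hsp90aa1* in 9 of 9 (-0.62) and *Hsp90ab1* in 9 of 9 (-0.68). *Dnajb1* was the exception, lower in 4 of 9 with a median of 0.14. The greatest difference was that of *Hspa1b* in oligodendrocyte-like cells (-3.86), followed by *Hspa1b* (-3.11) and *Hspb1* (-2.86) in macrophage-like cells, which rest on 2 and 0 UMIs and on 11 and 1 UMIs. *Hspa1a* in oligodendrocyte-like cells came next (-2.78). In oligodendrocyte-like cells all genes lay between -0.80 and 0.61 from the 5th to the 95th percentile. In endothelial-like cells the same 2 genes differed by -0.05 and -0.21, and *Cryab* by -2.19. The differences between libraries have no test.

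**Figure D4:**
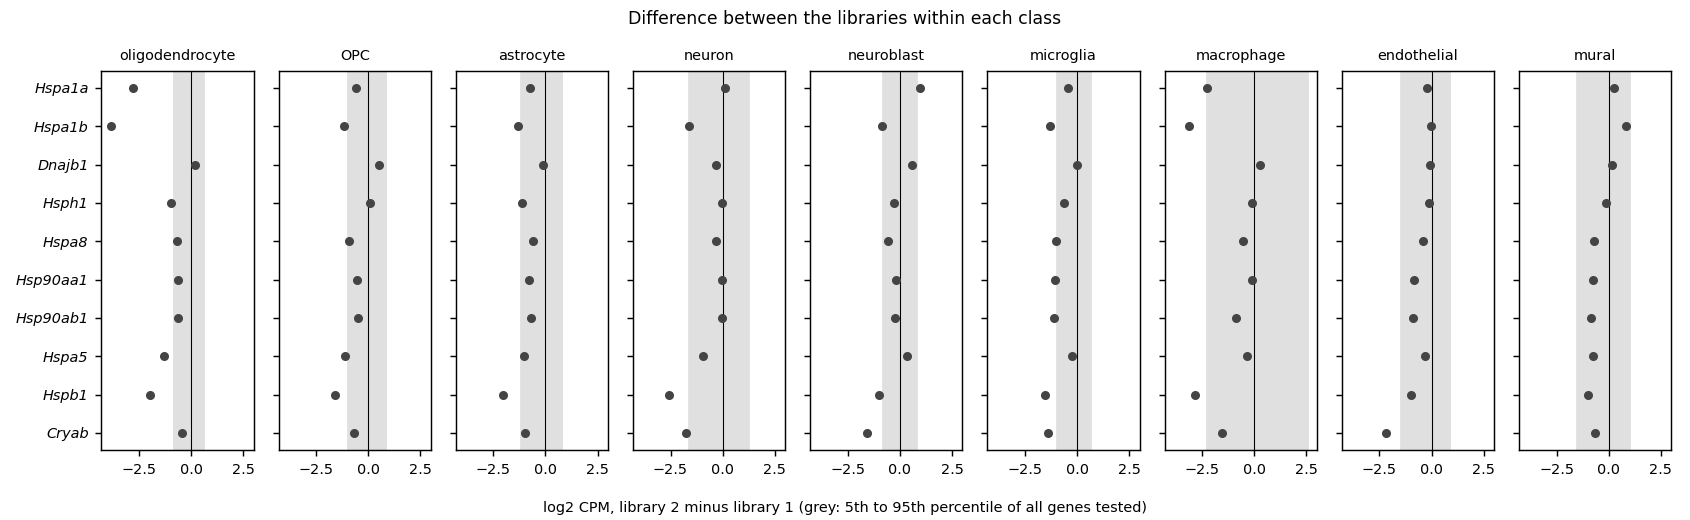
Difference between the libraries for each member (rows) in each class (panels). The horizontal axis is log2 CPM of library 2 minus library 1, each point is 1 member, the line marks 0 and the grey band runs from the 5th to the 95th percentile of all genes tested. Most points lie left of 0, and Hspa1b of oligodendrocytes lies furthest left at -3.86.

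Finer clusters split the lineages further, as a description without test. Along the oligodendrocyte lineage *Cryab* stood at 331 and 224 CPM in the deeper OPC-like cluster, at 1923 and 1506 in differentiating OPC-like cells and at 5247 and 3581 in the main oligodendrocyte-like cluster. The oligodendrocyte-like cluster with a median of 23.0% mitochondrial UMIs held less *Cryab* (1577 and 916 CPM) and *Hsp90aa1* (1374 and 1201 against 2857 and 1712) but more *Hspa5* (978 and 384 against 543 and 216). Among mural-like cells, the cluster of 115 led by *Acta2*, *Tagln* and *Myh11*, contractile genes of smooth muscle, held 818 and 606 CPM of *Cryab* and 2330 and 1306 of *Hspb1*, against 184 and 103 of *Cryab* and 2184 and 989 of *Hspb1* in the deepest cluster led by the pericyte genes *Rgs5* and *Vtn*. That cluster of 63 cells also raised 8 of 8 endothelial markers, whose part in its *Hspb1* level was not tested. A larger, shallower mural-like cluster led by *Vtn*, of 319 cells with a median of 2125 UMIs, is not part of this contrast. The contrast therefore does not give the level of pericytes as a whole. Fibroblast-like cells, counted within the mural-like class in the fit, held 352 and 246 CPM of *Hspb1*, between the vascular and the other classes.

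**Figure D5:**
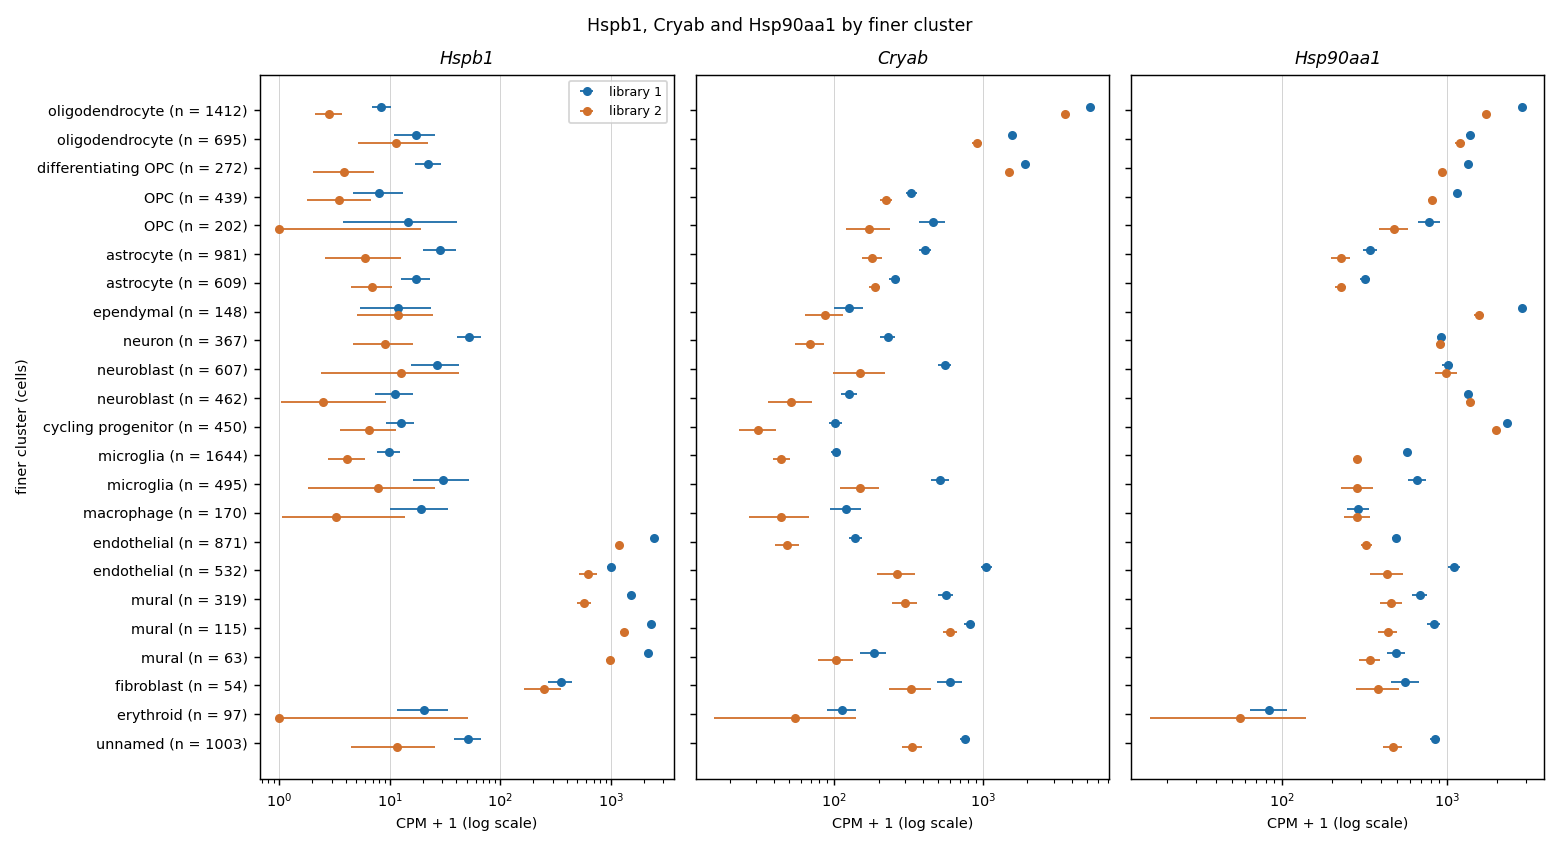
Hspb1, Cryab and Hsp90aa1 in the finer clusters. The vertical axis lists clusters by class with their number of cells, the horizontal axes give plain CPM plus 1 on a log scale, points are library 1 (blue) and library 2 (orange), and bars are exact Poisson 95% intervals for counting error only. Cryab climbs from OPC-like through differentiating OPC-like cells to the main oligodendrocyte-like cluster, and is lower in the oligodendrocyte-like cluster rich in mitochondrial RNA. Hsp90aa1 is high in oligodendrocyte, ependymal and cycling clusters.

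Across the 18 sums of class and library, which share 2 libraries and therefore are not independent, likeness is a description. *Hspa1a* varied most like *Hspb1* (Pearson r = 0.858) and *Hspa1b* (0.849), *Hspa8* like *Hsp90ab1* (0.852), and *Hsp90aa1* like *Hsph1* (0.786), while *Hspa5* reached at most 0.203 with any other member. Among 8363 genes outside the lists, the nearest to *Hspb1* were *Tinagl1* (0.990), *Car4* (0.989) and *Esam* (0.987), to *Cryab* *Gsn* (0.947), *Insc* (0.931) and *Dbndd2* (0.930), and to *Hspa1a* *Rhoj* (0.95), *Lamc1* (0.930) and *Tns2* (0.924). The nearest to *Hspa1b* were *Lzts2* (0.799), *Ptpn11* (0.790) and *Gng11* (0.788), and to *Hsp90aa1* *Sars* (0.909), *Elavl3* (0.905) and *Stmn4* (0.891). *Hsp90ab1* was nearest to *Ap2m1* (0.887), *Ubb* (0.884) and *Psmc1* (0.879), and *Dnajb1* to *Sar1a* (0.909), *Nampt* (0.894) and *Uap1* (0.882).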

How the data were processed

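Single cells of 2 libraries of 1 condition were measured. The authors deposited raw UMI counts per gene and barcode, made with Cell Ranger 4.0 on mm10 per the labels, while the paper's methods name another version. These counts are not normalised. Cell classes had to be rebuilt, and a difference from the study may come from their names. The members and gene lists were chosen with earlier results of these data known. The genes named were all 10 members, for each class the 2 other listed chaperones with the largest absolute fold change among those past the threshold and moved the same way in both libraries (others named in the text were chosen after their values were seen), and, for members spanning at least 4-fold, the 3 most similar genes outside the lists.

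The filters kept genes found in more than 3 cells and cells with 300 or more detected genes. Scrublet (scanpy 1.11.5; expected rate 6%) was run on each library, and marked doublets were removed. Seurat 5.3.0 in R 4.3.3 integrated the libraries on 2000 variable genes, without the 104 listed genes, and clustered on 30 components at resolution 0.08. A cluster took a class name if it raised 3 or more markers by 2-fold or more (after adding 10 CPM) and had a marker within its 50 leading genes. Counts were summed per library and class, where a class had 20 or more cells per library, and fitted in edgeR 4.0.16 with filterByExpr, TMM factors, the quasi-likelihood test and the library as a block, since all classes of a library share a suspension. Each class was compared with the mean of the others, and each pair of classes was compared for the order of levels. The threshold was an adjusted p of 0.05 and the prior count was 2. The block takes out any difference between the libraries that all classes share. The p-values therefore rest on how far class differences varied between the 2 libraries, pooled into 1 spread per gene over all classes and drawn towards that of other genes. An SE or adjusted p thus does not measure how well the libraries agreed in the class tested. *Hspa1a* and *Hspa1b* in oligodendrocyte-like cells were called although their libraries disagreed. The labels do not say whether the libraries come from separate animals, so this spread may be technical. On simulated counts, the class fit of 15273 genes recovered 48 of 100 genes changed 2-fold and 92 of 100 changed 4-fold. Only microglia-like sums were changed, the other classes shared 1 mean per gene, and no library difference was added. The simulated spread was set above the common spread of the data, so these rates do not give the power of the class contrasts. Likeness between genes used log2 of CPM plus 10, for genes with at least 50 CPM in a sum. Intervals are exact, at 95%, and cover counting error only. Thinned cells held 1000 UMIs, and 1491 shallower cells were left out. Promoter windows are from RefSeq and gene positions from an annotation of GRCm38. Alternatives were DESeq2 1.42.0, library sizes alone, no filter, no block, resolution 0.32, doublets kept, at least 500 genes, under 20% mitochondrial UMIs and thinning. Leaving out the mixed shallow cells and leaving out cells under 2000 UMIs were chosen after seeing the data. The alternative at resolution 0.32 also left out the mixed shallow cells, by the same later choice. A comparison is not reported here.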

Additional observations from a re-analysis of the deposited data

How the results depend on the processing

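The 2 libraries, which may be technical replicates, limit every test, and depth limits *Hspa1a* and *Hspa1b*, with 10 or fewer UMIs in many sums. Over 11 alternatives, the members differing between classes numbered 8 to 10 and the higher calls 19 to 29. The lower calls numbered 15 to 35, and the only count that left 1.5 times the main one was 15 lower calls with no replicate block, against 26. The block follows from the design, since classes of a library share a suspension, and without it 8 members differed and 19 pairs were higher. Of the 51 called pairs of member and class, 26 kept their sign and threshold in every tested alternative, where a missing adjusted p with the same sign counted as kept. Leaving out a library was not among these alternatives. The 26 include *Hspa1a* and *Hspa1b* in oligodendrocytes, whose levels were high in library 1 alone. Reversed values were -0.35 for *Hsph1* in neuroblasts at resolution 0.32, where cycling and ependymal cells formed classes of their own, -0.069 for *Dnajb1* in oligodendrocytes with library sizes alone, and 0.018 for *Cryab* in endothelial cells with doublets kept. The cause of the last 2 was not tested. Library sizes alone moved the median of all genes from -0.44 in oligodendrocytes to 0.44 in OPCs. Single libraries leave no residual for a test, so they give values: 50 of 51 called pairs kept their sign in both, and *Hspa1a* in oligodendrocytes ranged from -0.23 without library 1 to 2.18 without library 2.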
